A study of Mus musculus with 12 samples.

Results

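The enzymes that build the O-linked glycans of mucins were followed in RNA-seq libraries of mouse small intestinal crypts and colon tumors. A list of 10 genes was taken by gene symbol: the GalNAc transferases *Galnt3*, *Galnt4*, *Galnt7* and *Galnt12*, the core 1 transferase *C1galt1*, the branching transferases *Gcnt1* and *Gcnt3*, the core 3 transferase *B3gnt6*, the sialyltransferase *St6galnac1* and the fucosyltransferase *Fut2*. All 10 had a row among the 54532 genes of each of the 2 tables, 1 per tissue. In both tissues 9 of the 10 reached a mean of 0.5 FPKM (fragments scaled to gene length and library depth) over the 6 libraries of the tissue and entered the test, and *St6galnac1* did not.

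The comparison in each tissue asked how expression differs once ieCtnnb1, an intestinal enhancer upstream of *Ctnnb1*, has been deleted from the germline on both chromosomes with CRISPR/Cas9. All mice were of C57BL/6 background. Crypts came from adult wild-type mice (3 libraries) and adult *Ctnnb1* Δi.enh mice (3 libraries), whose genotype label is ieCtnnb1KO. Tumors came from 5-month-old *ApcMin/+* mice (3 libraries), which carry a nonsense allele of *Apc*, and from 5-month-old *Ctnnb1* Δi.enh;*ApcMin/+* mice (3 libraries), so that both tumor groups carry the *Apc* allele. The 12 libraries held between 14457896 and 16156712 fragments on genes. The deletion is present in every cell of the animal and not in the epithelium alone. *Ctnnb1* Δi.enh mice are called knockout and the mice with the intact enhancer control. The profiles of each group are described as those of 3 mice, as many as it has libraries, while the labels give a replicate number and no animal.

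Mucins are secreted or membrane-bound glycoproteins whose serines and threonines carry dense sugar chains. A chain starts when a GalNAc transferase attaches N-acetylgalactosamine in the Golgi, continues when *C1galt1* adds galactose (core 1) or *B3gnt6* adds N-acetylglucosamine (core 3), branches through *Gcnt1* or *Gcnt3*, and is capped with sialic acid or fucose. In the intestine these chains make up most of the mass of *Muc2*, the gel-forming mucin of goblet cells, and core 3 chains are known as a feature of the normal colon.

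*Ctnnb1*, the gene downstream of the deleted enhancer, was measured first. Its FPKM was 121, 134 and 123 in wild-type crypts and 102, 104 and 105 in knockout crypts, a log2 fold change of -0.28 (SE 0.12, adjusted p = 0.849, limma). In tumors it was 299, 363 and 358 in *ApcMin/+* libraries and 279, 248 and 250 in knockout libraries, a log2 fold change of -0.39 (SE 0.13, adjusted p = 0.303, limma). All 3 knockout libraries lay below all 3 control libraries in both tissues. All log2 fold changes were computed from log2(FPKM + 0.5), so differences of genes with low FPKM come out smaller than they are.

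The labelled tissues were checked against marker lists. Crypt libraries held all 11 Paneth and all 10 enterocyte markers above the filter, and also 6 of 9 colonocyte markers. Of these *Car4* had a higher mean FPKM in crypts (70.8) than in tumors (8.84), while *Hoxb13*, a gene of the distal colon, was at 0 in all 6 crypt libraries. Tumor libraries held all 9 colonocyte markers above the filter, led by *Hoxb13* (mean FPKM 96.9), and all 11 Paneth markers too, while 6 of 10 enterocyte markers and the stem cell marker *Olfm4* fell under it. Tumors also held all 7 fibroblast and smooth muscle markers, led by *Col1a1* (mean FPKM 121), so these libraries measured more than the epithelium. In bulk tissue of this kind, fewer cells of a type and less RNA per cell cannot be told apart.

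Several libraries stood apart from the others of their group. Wild-type crypt replicate 3 had a summed FPKM of 11 Paneth markers of 79706, against 30327 and 46126 in wild-type replicates 1 and 2 and 32910, 29654 and 31666 in knockout crypts. Its most abundant Paneth marker, *Defa24*, had an FPKM of 32836, against 7359 to 10163 in the other 5 crypt libraries, and its sum of 10 enterocyte markers (11220) was the highest of the 6. Without this library 3 genes had an adjusted p under 0.05 in crypts in limma. In wild-type crypt replicates 1 and 2 the summed FPKM of 7 stomach markers was 163 and 92.4, led by the trefoil peptide gene *Tff2* with an FPKM of 122 and 53.6. The sum was 3.40 in wild-type replicate 3 and 2.07, 5.68 and 1.96 in the knockout crypts. In tumors, knockout replicate 2 had a summed FPKM of 11 Paneth markers of 5110, against 3127 and 1787 in knockout replicates 1 and 3 and 2108, 2208 and 2449 in *ApcMin/+* tumors. *Xist*, which is expressed from an inactive X chromosome, had an FPKM of 114 in *ApcMin/+* replicate 3 and 61.4 in knockout replicate 3, and at most 0.0623 in the other 4 tumor libraries. Some of the results are given with and without these libraries. Without wild-type replicates 1 and 2 a single wild-type library remains, so the spread then comes from knockout crypts alone.

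**Figure D1:**
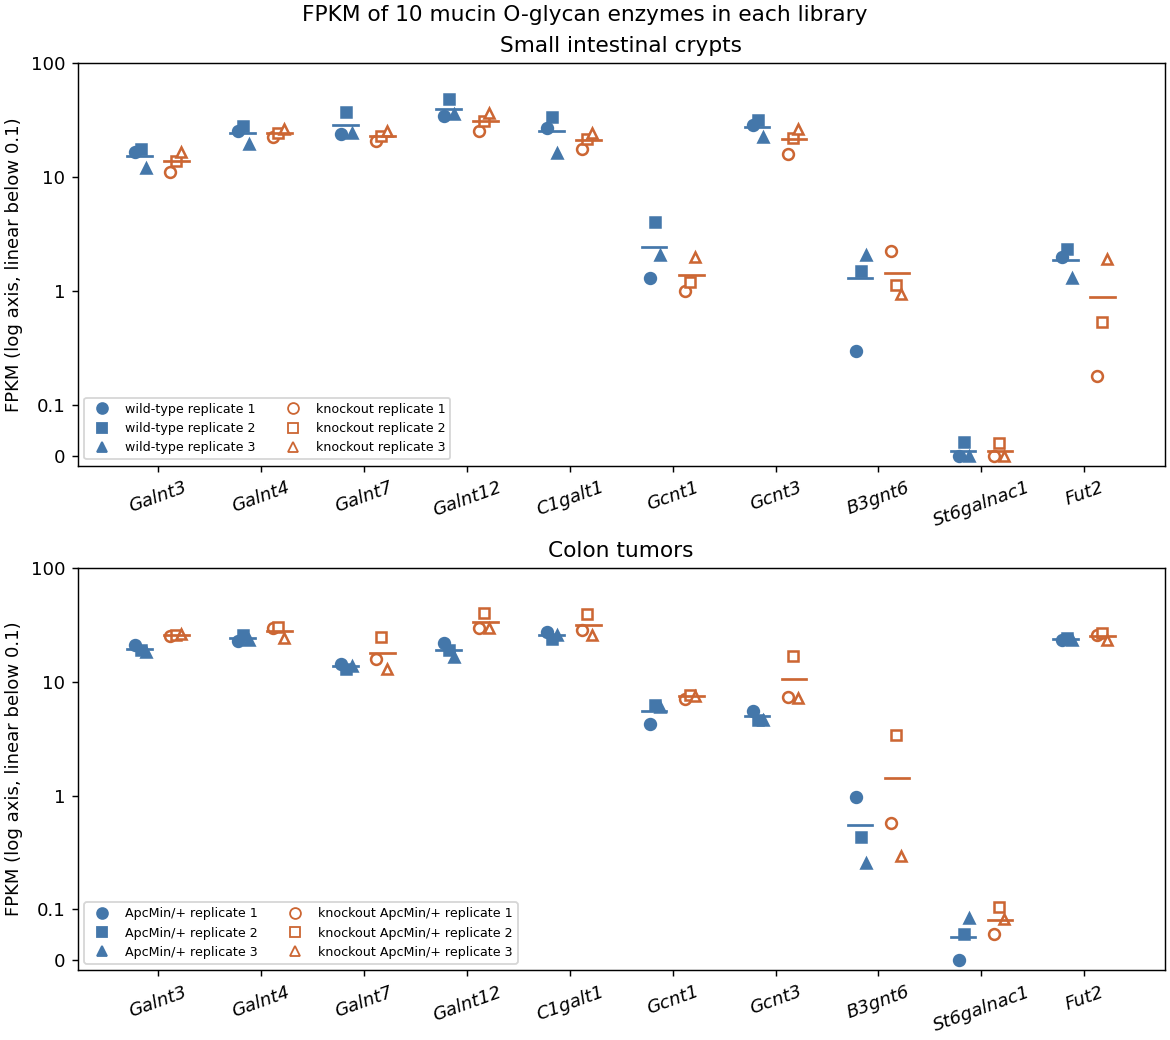
FPKM of the 10 enzymes in each library of crypts (top) and tumors (bottom), on a log axis that is linear below 0.1 FPKM; filled blue symbols are control libraries, open orange symbols knockout libraries, and horizontal lines group means. At the FPKM as deposited, the groups overlap in crypts for each of the 9 tested genes, while in tumors all 3 knockout libraries lie above all 3 control libraries for *Galnt3*, *Galnt12*, *Gcnt1* and *Gcnt3*.

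Levels of the enzymes in the control libraries were ordered by FPKM, which allows genes of different length to be set side by side. In wild-type crypts *Galnt12* had the highest mean FPKM of the 10 (39.8 ± 7.92, SD, n = 3). It was followed by *Galnt7* (28.5 ± 7.73), *Gcnt3* (27.6 ± 4.65), *C1galt1* (25.6 ± 8.74) and *Galnt4* (24.4 ± 4.42), and neighbours among these 4 differed by less than 1 SD. *Galnt3* stood at 15.4 ± 2.998, and a gap separated these 6 genes from *Gcnt1* (2.45 ± 1.39), *Fut2* (1.87 ± 0.526) and *B3gnt6* (1.29 ± 0.903), whose SDs overlap. *St6galnac1* had 1 fragment in wild-type replicate 2 and knockout replicate 2 and 0 in the other 4 crypt libraries.

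In *ApcMin/+* tumors *C1galt1* (25.6 ± 1.68, SD, n = 3), *Galnt4* (23.9 ± 1.59) and *Fut2* (23.6 ± 0.625) had the highest mean FPKM, and neighbours among them differed by less than the larger of their SDs. *Galnt3* (19.3 ± 1.47) and *Galnt12* (19.0 ± 2.66) differed by less than 1 SD. *Galnt7* followed at 13.6 ± 0.636, and *Gcnt1* (5.48 ± 1.08) and *Gcnt3* (4.94 ± 0.546) were again closer than 1 SD. *B3gnt6*, the enzyme of the colonic core 3 chain, was low in these colon tumors, at 0.551 ± 0.369, from 37, 17 and 9 fragments. *St6galnac1* had between 0 and 4 fragments per tumor library, close to the 3 fragments that a count of 0 allows, and no fold is given for it in either tissue. Such limits cover counting error alone.

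Among the fucosyltransferases and among the GalNAc transferases, the enzyme with the highest FPKM was not the same in both tissues. These levels come from tables that were normalized separately, so they are set side by side with no test between tissues. Of 5 fucosyltransferases, *Fut4* held 84.1% of the summed FPKM over the 6 crypt libraries, whereas *Fut2* held 67.6% over the 6 tumor libraries. *Fut2* lay above 25.1% of tested genes in wild-type crypts and above 85.1% in *ApcMin/+* tumors, and *Gcnt3* above 87.9% and 46.0%. Of 19 GalNAc transferases, *Galnt6* had the highest mean FPKM in wild-type crypts (51.9) and *Galnt1* in *ApcMin/+* tumors (31.8), while in knockout tumors the mean of *Galnt12* (33.1) was above that of *Galnt1* (32.2). The order in knockout tumors rests on replicate 2, with 40.2 for *Galnt12* and 32.5 for *Galnt1*. In replicates 1 and 3 *Galnt12* (29.7 and 29.4) was below *Galnt1* (32.0 and 32.0). Together *Galnt3*, *Galnt4*, *Galnt7* and *Galnt12* made up 48.1% of the summed FPKM of this family in wild-type crypts and 49.97% in *ApcMin/+* tumors.

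The genes lie on 9 chromosomes of GRCm38, with *B3gnt6* (98192417 to 98199481, minus strand) and *Fut2* (45648591 to 45666394, minus strand) both on chromosome 7. *Galnt4* (ENSMUSG00000090035; chromosome 10, 99108159 to 99113247, plus strand) is a single exon that shares 420 exon bases with *Poc1b* on the same strand, so fragments in those bases cannot be given to 1 of the 2 genes. The mean FPKM of *Poc1b* was 6.42 in crypts and 7.06 in tumors. *Galnt7* (ENSMUSG00000031608; chromosome 8, 57523828 to 57653032, minus strand) shares 98 exon bases with the antisense gene *AW046200*, whose mean FPKM was 0.196 in crypts and 0.425 in tumors. The use of strand in counting is not given in the sources used here.

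Promoter sequence was available for 4 of the 10 genes, *Galnt3*, *Galnt7*, *C1galt1* and *Gcnt1*, in a RefSeq table for GRCm38.p6. It is shown for *Gcnt1*, chosen after all 3 knockout tumors were seen to lie above all 3 control tumors for this gene. Of its 3 start sites in that table, the one used is also the start of the gene in the annotation deposited with the FPKM. There its highest position on this minus strand is 17356667. The span of *Gcnt1* is not the same in GENCODE M21, the annotation from which exons are taken here. The 250 bases before it hold no annotated exon, nor do those of 1 of the other 2 start sites. The window is chr19:17356668-17356917 on the minus strand, written 5′ to 3′, with capitals for matches to GGGNGTGG, the core of a Krüppel-like factor motif.

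*Gcnt1* promoter: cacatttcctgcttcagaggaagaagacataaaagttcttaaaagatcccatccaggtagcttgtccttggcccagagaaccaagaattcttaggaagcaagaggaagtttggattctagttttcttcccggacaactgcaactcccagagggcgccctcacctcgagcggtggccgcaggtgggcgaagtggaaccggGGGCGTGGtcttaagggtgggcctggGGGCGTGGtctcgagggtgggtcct

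The letters GGGNGTGG were picked after this window had been read, so their matches in it are a description. They were searched on both strands and matched at 2 places in this window, and 15.9% of 32851 promoter windows of the same length hold at least 1 match. The other 2 windows of *Gcnt1* and those of the other 3 genes held no match. Annotated exon takes up all 250 bases of the *C1galt1* window, 201 of the *Galnt3* window and 63 of 1 *Gcnt1* window not shown. Neither the TCF/LEF letters CTTTGAA or CTTTGAT nor the E-box CAGCTG occurred in any window of the 4 genes, against 7.48% and 13.001% of all promoter windows. The Ets letters CCGGAAGT (2.88% of all windows) were in none of them either, and the NF-Y letters CCAAT (33.8% of all windows) occurred once in each of the other 2 windows of *Gcnt1*. The window shown is 55.6% G and C, beside a median of 52.4% over all windows.

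In crypts, knockout and wild-type libraries overlapped for each of the 9 tested enzymes at the FPKM as deposited. Of the 9 tested enzymes, 7 had a negative and 2 a positive log2 fold change, with a median of -0.28 beside 0.01 over all 14176 tested genes. No member and no other gene (0%) had an adjusted p under 0.05 in limma, and voom on recovered fragments gave the same count of 0. The adjusted p of the 9 lay between 0.860 and 0.996 in limma. At an unadjusted p under 0.05 the count of members was 0 in limma, where 829 of all tested genes (5.85%) had one, 3.48% higher and 2.36% lower. In voom it was 1 (*Fut2*), beside 805 of all genes, 455 higher and 350 lower. The count of members whose groups did not overlap was 0, whereas knockout libraries lay above all wild-type libraries for 6.79% of tested genes and below them for 5.15%. This 0 held for the FPKM as deposited and became 1 lower member when libraries were rescaled to the same total (*Galnt12*), 1 after quantile normalization (*Galnt12*) and 2 when rescaled without the 50 genes of highest FPKM (*Galnt7* and *Galnt12*). With each library left out it was between 0 and 5 lower members, with 4 lower without wild-type replicate 3 and 5 without knockout replicate 3. Of the 829 genes, 494 were higher and 335 lower, a split that became 314 higher and 474 lower when libraries were rescaled without the 50 genes of highest FPKM.

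The GalNAc transferases start the chain. *Galnt12* had an FPKM of 34.4, 48.8 and 36.1 in wild-type crypts and 25.5, 30.9 and 36.7 in knockout crypts. The values overlap through knockout replicate 3, and the log2 fold change was -0.35 (SE 0.19, adjusted p = 0.872, limma), with 3 of 3 knockout libraries below the wild-type mean. It was -0.48 without knockout replicate 3, -0.19 without wild-type replicate 2, -0.22 without knockout replicate 1 and -0.23 without wild-type replicates 1 and 2. *Galnt7*, which prefers peptides that already carry a sugar, had an FPKM of 23.7, 37.4 and 24.4 in wild-type and 20.5, 23.0 and 25.6 in knockout crypts (log2 fold change -0.28, SE 0.20). Here wild-type replicate 2 was the high library, and without it the log2 fold change was -0.07 (-0.09 without wild-type replicates 1 and 2). *Galnt3* ranged from 11.96 to 17.6 in wild-type and from 11.01 to 16.5 in knockout crypts (log2 fold change -0.15, SE 0.20), and its value was between -0.32 and -0.0081 with each library left out and 0.18 without wild-type replicates 1 and 2. *Galnt4* ranged from 19.5 to 28.1 and from 22.6 to 26.4, with a log2 fold change of 0.02 (SE 0.16) that was negative when libraries were rescaled without the 50 genes of highest FPKM (-0.033) or after quantile normalization (-0.056). With each library left out it was between -0.13 and 0.13, and without wild-type replicates 1 and 2 it was 0.32.

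The core and branching enzymes also overlapped between groups. *C1galt1* had an FPKM of 26.9, 33.6 and 16.3 in wild-type crypts, a spread that took in the 17.5, 21.6 and 24.5 of knockout crypts. Its log2 fold change of -0.22 (SE 0.27) was 0.0048 without wild-type replicate 2, -0.09 without knockout replicate 1, -0.51 without wild-type replicate 3 and 0.36 without wild-type replicates 1 and 2. Its chaperone *C1galt1c1*, which *C1galt1* needs to fold, had a log2 fold change of 0.01 (SE 0.14), and -0.040 when rescaled without the 50 genes of highest FPKM. *Gcnt3*, which makes core 2 and core 4 branches, had an FPKM of 28.6, 31.6 and 22.5 in wild-type and 16.0, 21.9 and 26.5 in knockout crypts (log2 fold change -0.37, SE 0.21, adjusted p = 0.887, limma), with 3 of 3 knockout libraries below the wild-type mean. It was -0.53 without knockout replicate 3, -0.18 without knockout replicate 1 and -0.09 without wild-type replicates 1 and 2. *Gcnt1*, which makes core 2 branches, ranged from 1.30 to 3.99 in wild-type and from 0.992 to 1.98 in knockout crypts, and its log2 fold change of -0.57 (SE 0.36) was -0.22 without wild-type replicate 2 and -0.88 without wild-type replicate 1. *B3gnt6* was between 0.300 and 2.07 in wild-type and between 0.931 and 2.23 in knockout crypts, from 11 to 86 fragments, and its log2 fold change of 0.21 (SE 0.47) was -0.29 without wild-type replicate 1, -0.065 without knockout replicate 1, 0.56 without wild-type replicate 3 and -0.47 without wild-type replicates 1 and 2.

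*Fut2*, which adds the terminal fucose of the H antigen, had the log2 fold change farthest from 0 of the 9 in crypts. Its FPKM was 1.99, 2.32 and 1.29 in wild-type crypts and 0.181, 0.539 and 1.91 in knockout crypts, from 167, 193 and 110 and from 16, 49 and 146 fragments. Knockout replicates 1 and 2 lay below all wild-type libraries, and replicate 3 lay among them. The log2 fold change was -0.96 (SE 0.46, 95% interval -2.04 to 0.12, adjusted p = 0.860, limma; exact permutation test, two-sided p = 0.2). It was -1.47 without knockout replicate 3, -0.55 without knockout replicate 1 and -0.58 without wild-type replicates 1 and 2, and voom gave -1.71.

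The crypt values varied with the library left out. Wild-type replicate 2 had the highest FPKM of the 6 libraries for 8 of the 9 tested members, and knockout replicate 1 the lowest for 6. The median log2 fold change of the members was -0.07 without wild-type replicate 2, -0.18 without knockout replicate 1 and -0.09 without wild-type replicates 1 and 2, the libraries with stomach markers. It was farther from 0 without wild-type replicate 3 (-0.41), knockout replicate 3 (-0.35) or wild-type replicate 1 (-0.34). The summed FPKM of 13 goblet markers was 6219, 9555 and 9969 in wild-type crypts and 5619, 6738 and 8590 in knockout crypts, led by *Tff3* (mean FPKM 2395), with no marker at 0. It was likewise lowest in knockout replicate 1. The median log2 fold change of these markers, -0.27, was -0.49 without wild-type replicate 1, -0.48 without knockout replicate 3, -0.11 without wild-type replicate 2 and -0.12 without knockout replicate 1. Markers of other cells were counted too, and none had an adjusted p under 0.05 in limma. At an unadjusted p under 0.05 the count was 0 of 10 enterocyte markers and 2 of 11 Paneth markers (lower). Of 6 enteroendocrine markers 2 were lower, of 5 B and plasma cell markers 2, and of 6 stem cell markers 1. Of 2 tested fibroblast and smooth muscle markers 1 was lower, and of 6 tested colonocyte markers 2 were higher. All 5 tested stomach markers were lower, being highest in wild-type replicates 1 and 2. No T cell, tuft, endothelium or macrophage and neutrophil marker had such a p. Of all tested genes, 3.48% were higher and 2.36% lower at this p, and 52.8% had a positive log2 fold change. All 10 enterocyte markers had a positive log2 fold change (median 0.37, but -0.23 without wild-type replicates 1 and 2, and 0.15 to 0.73 with each library left out). The 11 Paneth markers were all negative (median -0.56, between -0.88 without wild-type replicate 1 and -0.38 without wild-type replicate 3, -0.22 after quantile normalization and -0.97 without wild-type replicates 1 and 2). The summed FPKM of 9 colonocyte markers was 107, 120 and 121 in wild-type and 134, 134 and 172 in knockout crypts, with no overlap, led by *Car4*. The part of these cells in the enzyme values was not tested. *Muc2* had an FPKM of 283, 394 and 242 in wild-type and 234, 280 and 414 in knockout crypts, a log2 fold change of 0.0034 (SE 0.27) that was -0.048 when rescaled without the 50 genes of highest FPKM.

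Genes of the pathway in crypts were also taken from lists by step, which hold the 10 enzymes too. Of those tested, the count at an unadjusted p under 0.05, where 3.48% of all tested genes were higher and 2.36% lower, was 0 of 9 GalNAc transferases, 0 of 6 core and branching enzymes, 0 of 10 chain extension enzymes, 1 of 8 sialyltransferases (lower), 0 of 3 fucosyltransferases, 2 of 4 sulfotransferases (1 higher and 1 lower), 2 of 22 sugar donor genes (higher) and 2 of 7 mucins (lower, both past the filter through wild-type libraries). *St3gal1*, which puts sialic acid on core 1 chains, had an FPKM of 4.78, 6.07 and 5.12 in wild-type and 3.57, 3.05 and 4.45 in knockout crypts (log2 fold change -0.48, SE 0.16, adjusted p = 0.800, limma). The sulfotransferases *Gal3st1* and *Chst4* had log2 fold changes of 0.61 (SE 0.16) and -0.37 (SE 0.14), and neither overlapped between groups. That of *Chst4* was -0.17 without wild-type replicates 1 and 2. *Papss2*, which makes the sulfate donor, had a log2 fold change of 0.96 (SE 0.34) that was 0.63 without knockout replicate 3, and *Galt*, an enzyme of galactose use, of 0.43 (SE 0.11). The goblet cell stress sensor gene *Ern2* had a log2 fold change of -0.82 (SE 0.29), and -1.30 without wild-type replicates 1 and 2. The adjusted p of these 6 genes lay between 0.757 and 0.821 in limma.

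The 2 mucins with an unadjusted p under 0.05 in crypts, *Muc6* and *Mucl3*, were highest in wild-type replicates 1 and 2, the libraries with stomach markers. They passed the filter of 0.5 FPKM through these libraries, with means of 0.893 and 0.511 over the 6 libraries and of 0.0757 and 0 over the knockout libraries, so these p-values rest on genes kept by the higher group. *Muc6*, a gel-forming mucin of gastric glands, had an FPKM of 3.49, 1.49 and 0.1499 in wild-type crypts and at most 0.0913 in knockout crypts (log2 fold change -1.59, SE 0.61). *Mucl3* was 1.39 and 1.68 in wild-type replicates 1 and 2 and at 0 in the other 4 libraries. *Muc5ac*, the surface mucin of the stomach, was 0.619 and 0.158 in wild-type replicates 1 and 2 and at 0 in the other 4. The log2 fold change of *Muc6* was -0.98 without wild-type replicate 1 and -0.18 without both of these wild-type libraries. *Muc13* and *Muc4*, which sit in the membrane, had log2 fold changes of -0.12 (SE 0.15) and 0.05 (SE 0.26). That of *Muc13* was -0.067 without wild-type replicate 2 and -0.21 after quantile normalization, and that of *Muc4* was between -0.21 (without wild-type replicate 3) and 0.32 (without wild-type replicate 1). *Muc1* and *Muc5b* did not reach the filter.

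In tumors, all 9 tested enzymes had a positive log2 fold change, with a median of 0.41 beside 0.01 over all 16743 tested genes. Libraries of knockout tumors lay above all *ApcMin/+* libraries for *Galnt3*, *Galnt12*, *Gcnt1* and *Gcnt3*, 4 of the 9, where 11.4% of tested genes did so and 10.6% lay below. These 4 were also the members with an unadjusted p under 0.05, as had 2421 of all tested genes (14.5%), 8.46% higher and 6% lower. No member and no other gene (0%) had an adjusted p under 0.05 in limma, and voom on recovered fragments gave the same count of 0. The study tested read counts with DESeq2 and reported higher expression of genes related to mucin biosynthesis in these knockout tumors. Its calls come from another model than the limma test of FPKM used here. With 3 libraries per group the smallest two-sided p of an exact permutation test is 0.1, which each of the 4 reached. The adjusted p of the 9 lay between 0.269 and 0.676 in limma. Of the 2421 genes, 1417 were higher and 1004 lower, and this split became 1075 and 1344 when libraries were rescaled to the same total, 1072 and 1353 without the 50 genes of highest FPKM, and 1109 and 1286 after quantile normalization. All 9 members stayed above the median of all genes under these scalings.

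Among the GalNAc transferases, *Galnt12* had the largest separation. Its FPKM was 21.7, 18.9 and 16.4 in *ApcMin/+* tumors and 29.7, 40.2 and 29.4 in knockout tumors. The lowest knockout library lay above the highest control library, and the log2 fold change was 0.78 (SE 0.16, 95% interval 0.40 to 1.16, adjusted p = 0.269, limma). *Galnt3*, whose best known substrate is a phosphate-regulating hormone, had an FPKM of 20.9, 18.9 and 18.0 in *ApcMin/+* and 24.9, 25.9 and 26.4 in knockout tumors. The 3 knockout values were close together, and the log2 fold change was 0.41 (SE 0.09, 95% interval 0.21 to 0.61, adjusted p = 0.269, limma), between 0.36 and 0.47 with each library left out. *Galnt4* had an FPKM of 22.7, 25.7 and 23.4 in *ApcMin/+* and 29.5, 30.4 and 24.0 in knockout tumors (log2 fold change 0.22, SE 0.11). *Galnt7* had 14.2, 12.9 and 13.6 against 15.9, 24.6 and 12.9, and its log2 fold change of 0.33 (SE 0.22) was 0.08 without knockout replicate 2 and 0.53 without knockout replicate 3.

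The branching enzymes were the other members whose groups did not overlap. *Gcnt3* had an FPKM of 5.57, 4.64 and 4.62 in *ApcMin/+* tumors and 7.38, 16.9 and 7.25 in knockout tumors. Knockout replicate 2 was far above the other 2 knockout libraries, which were themselves above all controls. The log2 fold change was 0.91 (SE 0.31, adjusted p = 0.309, limma), and 0.53 without knockout replicate 2. *Gcnt1* had an FPKM of 4.25, 6.23 and 5.95 in *ApcMin/+* and 7.11, 7.67 and 7.52 in knockout tumors (log2 fold change 0.42, SE 0.15, adjusted p = 0.316, limma). *ApcMin/+* replicate 1 was the low library for *Gcnt1*, and without it the log2 fold change was 0.27.

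The groups overlapped for the enzymes that set the core and for *Fut2*. *C1galt1* had an FPKM of 27.2, 23.8 and 25.7 in *ApcMin/+* and 28.4, 39.2 and 25.6 in knockout tumors, a log2 fold change of 0.26 (SE 0.16) that was 0.08 without knockout replicate 2. *C1galt1c1* had a log2 fold change of 0.13 (SE 0.15), and -0.020 without that library. *B3gnt6* had an FPKM of 0.964, 0.435 and 0.254 in *ApcMin/+* and 0.577, 3.42 and 0.298 in knockout tumors. The 3.42 came from 130 fragments in knockout replicate 2, and without it the log2 fold change of 0.57 (SE 0.61) was -0.12. *Fut2* had an FPKM of 23.1, 24.3 and 23.4 in *ApcMin/+* and 25.8, 26.6 and 23.0 in knockout tumors, a log2 fold change of 0.09 (SE 0.08, 95% interval -0.12 to 0.29) that was 0.04 when rescaled to the same total and 0.00026 after quantile normalization. With each library left out, that of *Fut2* was between 0.046 (without knockout replicate 2) and 0.15 (without knockout replicate 3).

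Knockout tumor replicate 2 had the highest FPKM of the 6 tumor libraries for 8 of the 9 tested members. Without it the median log2 fold change of the members was 0.15. *Galnt3* and *Galnt12* had an unadjusted p under 0.05 with each library left out in turn. *Gcnt1* lost it without any 1 of the 3 knockout libraries, and *Gcnt3* without *ApcMin/+* replicate 2 or 3. Without knockout replicate 3 the count was 5, since *Galnt4* and *Galnt7* joined it. Without the 2 libraries that express *Xist* the median was 0.48 and the count 3 (*Galnt3*, *Galnt4* and *Galnt12*).

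**Figure D2:**
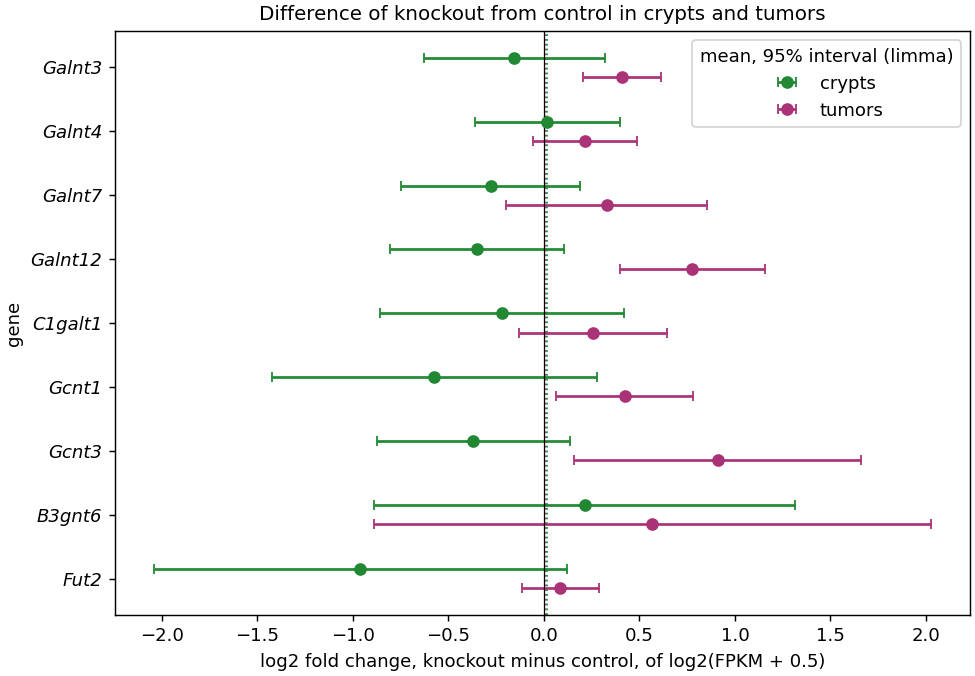
Log2 fold change of knockout against control, on the scale of log2(FPKM + 0.5), with 95% intervals from limma, for the 9 enzymes tested in crypts (green) and tumors (purple); dotted lines mark the medians of all tested genes, 0.01 in both tissues. All crypt intervals take in 0, and in tumors the intervals of *Galnt3*, *Galnt12*, *Gcnt1* and *Gcnt3* lie above 0.

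The lists by step, which hold the 10 enzymes themselves, were counted in tumors in the same way. *Galnt3* and *Galnt12* are among the GalNAc transferases counted as higher. *Gcnt1* and *Gcnt3* are the core and branching enzymes so counted, so that count repeats the result for the members. At an unadjusted p under 0.05, where 8.46% of all tested genes were higher and 6% lower (1075 genes higher and 1344 lower when rescaled to the same total), 4 of 11 tested GalNAc transferases were higher and 2 lower, and 2 of 6 core and branching enzymes, 4 of 10 chain extension enzymes, 4 of 11 sialyltransferases, 0 of 3 fucosyltransferases and 4 of 7 sulfotransferases were higher and 0 lower. Of 22 sugar donor genes 10 were higher and 1 lower, and of 9 mucins 4 were higher and 1 lower. None of these genes had an adjusted p under 0.05 in limma. Median log2 fold changes were 0.31 for GalNAc transferases, 0.34 for core and branching, 0.34 for chain extension, 0.28 for sialyltransferases, 0.09 for fucosyltransferases, 0.52 for sulfotransferases and 0.20 for sugar donor genes.

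The sugar donor genes named by the smallest p encode a pair of Golgi transporters and an enzyme. *Slc35a2*, the transporter of UDP-galactose, had an FPKM of 13.5, 13.4 and 12.5 in *ApcMin/+* and 18.3, 20.1 and 17.8 in knockout tumors (log2 fold change 0.50, SE 0.09). *Slc35a1*, the transporter of CMP-sialic acid, had a log2 fold change of 0.50 (SE 0.09), and *Uap1*, which makes UDP-N-acetylglucosamine, of 0.51 (SE 0.09). For each of the 3 genes all knockout libraries lay above all *ApcMin/+* libraries, and the adjusted p was 0.269 in limma.

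**Figure D3:**
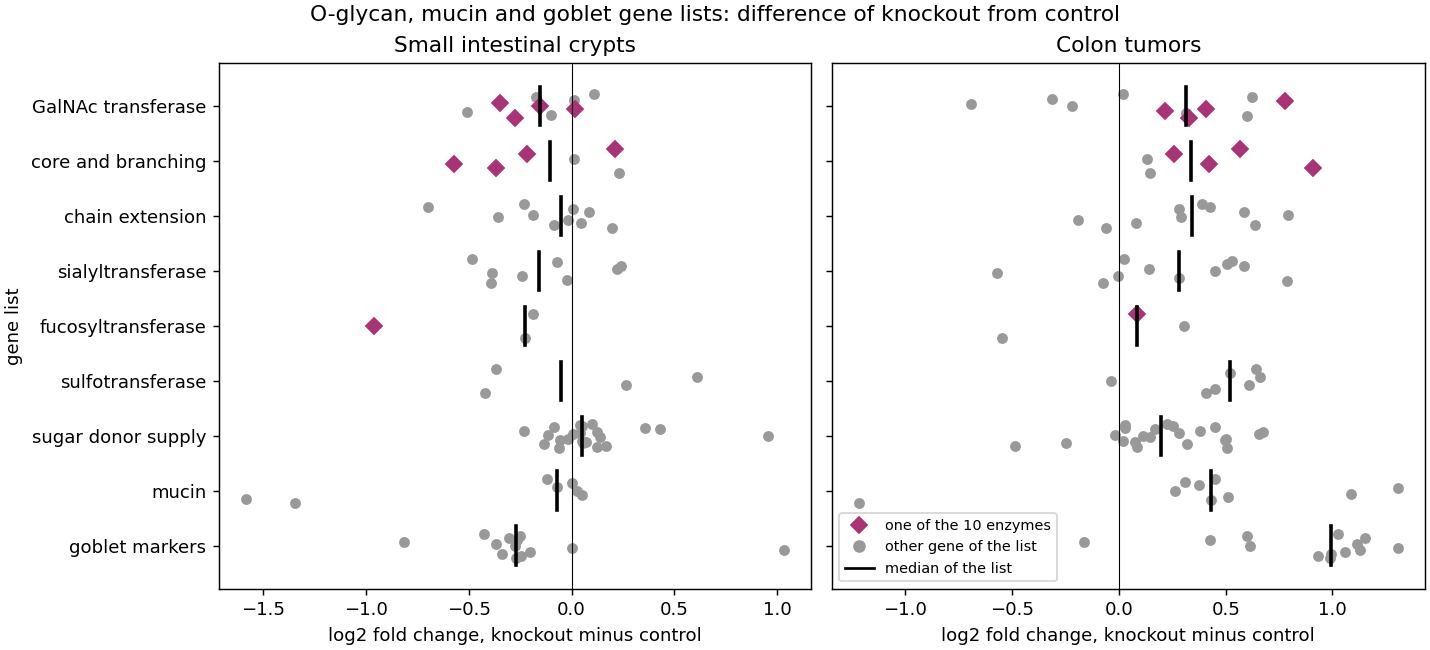
Log2 fold change of knockout against control for each tested gene of the O-glycan, mucin and goblet lists in crypts (left) and tumors (right); purple diamonds are the 10-gene list, grey circles other genes, and black bars list medians. In crypts the GalNAc transferases have a median of -0.15 and the goblet markers of -0.27, and in tumors the medians are 0.31 and 0.995.

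Goblet cell markers were also higher in knockout than in *ApcMin/+* tumors. Of 13 goblet markers, 12 had an unadjusted p under 0.05 and did not overlap between groups, all higher in knockout tumors, beside 8.46% and 11.4% of all tested genes. The median log2 fold change of the 13 was 0.995. Their summed FPKM was 1570, 1614 and 1646 in *ApcMin/+* tumors and 2963, 3490 and 3112 in knockout tumors, led by *Spink4* (mean FPKM 865), and no marker was at 0. *Muc2* had an FPKM of 151, 123 and 114 in *ApcMin/+* and 259, 419 and 295 in knockout tumors, a log2 fold change of 1.31 (SE 0.21, adjusted p = 0.269, limma). Their part in the enzyme values was not tested.

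The other goblet genes named by the smallest p were *Zg16*, a secreted lectin, *Agr2*, a disulfide isomerase needed for *Muc2*, the trefoil peptide gene *Tff3*, the secreted inhibitor gene *Spink4*, and *Spdef*, a transcription factor of goblet cell maturation. Their log2 fold changes were 0.99 (SE 0.15), 1.03 (SE 0.16), 0.93 (SE 0.15), 0.995 (SE 0.17) and 1.06 (SE 0.19), each with an adjusted p of 0.269 in limma and with 3 of 3 knockout libraries above all controls. Each of these values was farther from 0 than that of any of the 9 enzymes, though *Tff3* and *Gcnt3* (0.91, SE 0.31) differed by less than the SE. This order did not hold without knockout replicate 3, where *Gcnt3* was 1.11 and *Zg16* 0.86. *Ern2* had an FPKM of 23.6, 28.9 and 24.0 in *ApcMin/+* and 27.3, 31.0 and 13.5 in knockout tumors. Its log2 fold change of -0.16 (SE 0.30) was 0.19 without knockout replicate 3, -0.39 without knockout replicate 2, -0.30 without knockout replicate 1 and -0.072 without *ApcMin/+* replicate 2. Without the 2 libraries that express *Xist* this value was 0.15.

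**Figure D4:**
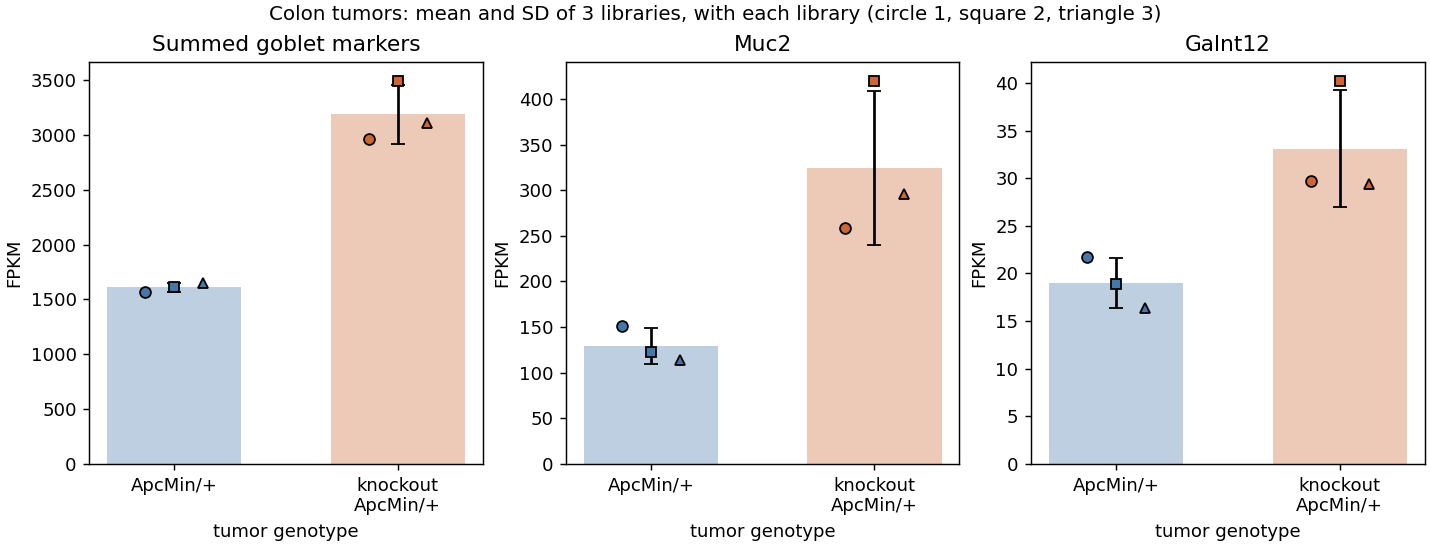
FPKM in colon tumors of 13 goblet markers summed, of *Muc2* and of *Galnt12*; bars are means of 3 libraries, error bars SDs, and symbols the libraries. Knockout tumors lie above *ApcMin/+* tumors in each panel, with ratios of group means of 1.98 for the sum, 2.51 for *Muc2* and 1.74 for *Galnt12*.

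Of the 9 tested mucins, 8 had a positive log2 fold change in tumors and *Muc6* a negative one. Beside *Muc2*, the membrane mucins *Muc3* and *Muc3a*, singled out after their values were seen, had all 3 knockout libraries above all *ApcMin/+* libraries. *Muc3* had an FPKM of 88.0, 89.0 and 104 in *ApcMin/+* and 136, 213 and 272 in knockout tumors (log2 fold change 1.09, SE 0.25, adjusted p = 0.269, limma). *Muc3a* had 15.3, 16.5 and 18.0 against 23.4, 25.5 and 22.6 (log2 fold change 0.51, SE 0.09, adjusted p = 0.269, limma). *Emcn* and *Muc20* had log2 fold changes of 0.45 (SE 0.20, groups apart) and 0.26 (SE 0.25, groups overlapping). That of *Emcn* was 0.28 without knockout replicate 3 and 0.19 without the 2 libraries that express *Xist*. That of *Muc20* was 0.13 without knockout replicate 2, 0.12 without *ApcMin/+* replicate 2, 0.41 without knockout replicate 3 and 0.47 without *ApcMin/+* replicate 1. *Muc13* had an FPKM of 248, 263 and 230 in *ApcMin/+* and 292, 347 and 324 in knockout tumors (log2 fold change 0.37, SE 0.12), with no overlap between groups and 0.16 after quantile normalization. *Muc6* had 6.91, 16.5 and 17.5 against 4.195, 7.65 and 4.21, a log2 fold change of -1.22 (SE 0.39, adjusted p = 0.300, limma), with values that overlap through *ApcMin/+* replicate 1. *Muc4* and *Muc1* had log2 fold changes of 0.43 (SE 0.33) and 0.31 (SE 0.39), and that of *Muc4* was between 0.13 (without *ApcMin/+* replicate 3) and 0.68 with each library left out. That of *Muc1* was between 0.087 (without knockout replicate 1) and 0.72 (without knockout replicate 2), and -0.032 without the 2 libraries that express *Xist*. *Muc5ac* and *Muc5b* had an FPKM of at most 0.0373 in every tumor library.

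Markers of other cells were set beside these values. The summed FPKM of 9 colonocyte markers was 227, 233 and 222 in *ApcMin/+* and 303, 436 and 366 in knockout tumors, and that of 7 fibroblast and smooth muscle markers 438, 309 and 283 against 456, 543 and 466. Macrophage and neutrophil markers, led by *S100a9*, summed to 250, 477 and 351 against 267, 174 and 270. Of the 9 colonocyte markers 2 and of the 7 fibroblast and smooth muscle markers 4 were higher at an unadjusted p under 0.05, and of the 6 macrophage and neutrophil markers 1 was higher and 2 lower. None of these markers was at 0 in all tumor libraries. The first 2 sums did not overlap between groups and the last did, and the part of each in the enzyme values was not tested.

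Ratios of 2 enzymes within a library do not depend on how libraries are scaled. The ratio of *Gcnt3* to *C1galt1* was 0.205, 0.195 and 0.180 in *ApcMin/+* tumors and 0.260, 0.430 and 0.283 in knockout tumors. The groups did not overlap, and the difference of mean log2 ratios was 0.71 (exact permutation test, two-sided p = 0.1, the smallest possible; adjusted p = 0.6 over the 6 ratio tests of both tissues). It was 0.49 without knockout replicate 2. In crypts the same ratio was 1.06, 0.940 and 1.38 in wild-type and 0.912, 1.02 and 1.08 in knockout libraries, a difference of -0.15 with overlapping groups. It was 0.0016 without wild-type replicate 3, -0.28 without wild-type replicate 2, -0.087 without knockout replicate 1 and -0.46 without wild-type replicates 1 and 2.

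The ratio of *Gcnt3* to *Gcnt1* overlapped between groups in both tissues, with differences of 0.35 in crypts and 0.51 in tumors on the log2 scale. With each library left out these lay between 0.027 (without wild-type replicate 2) and 0.76 in crypts, and between 0.14 (without knockout replicate 2) and 0.78 in tumors. The groups overlapped too for the ratio of *B3gnt6* to *C1galt1*, with differences of 0.67 and 0.56. The difference of *B3gnt6* to *C1galt1* was -0.25 in crypts without wild-type replicate 1, -1.01 there without wild-type replicates 1 and 2, and -0.27 in tumors without knockout replicate 2. The adjusted p of the other 5 ratio tests was 0.7 (exact permutation tests). The ratio of *B3gnt6* to *C1galt1* lay between 0.0112 and 0.127 in crypts and between 0.00988 and 0.0871 in tumors, so that the FPKM of the core 3 enzyme was below that of the core 1 enzyme in all 12 libraries. The ratio of *Fut2* to *C1galt1*, added after the data had been seen, was 0.0740, 0.0691 and 0.0794 in wild-type crypts, 0.0103, 0.0250 and 0.0782 in knockout crypts, and between 0.677 and 1.02 in the 6 tumor libraries. Its difference of mean log2 ratios was -1.44 in crypts and -0.17 in tumors (exact permutation tests, two-sided p = 0.3 and 0.4), with overlapping groups in both. In crypts it was -0.74 without knockout replicate 1 and -2.21 without knockout replicate 3, and in tumors -0.033 without knockout replicate 2 and -0.10 without *ApcMin/+* replicate 2. Ratios with *St6galnac1* were not computed, since it was at 0 in 4 crypt libraries and 1 tumor library.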

How the data were processed

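Gene expression was measured in 12 libraries of mouse crypts and colon tumors, in 4 groups of 3. The authors deposited FPKM per gene in 1 table per tissue, normalized separately, so no test runs across tissues. The submitters' notes name Cufflinks 2.2.1, HISAT2, cutadapt, DESeq2 and the mm10 build, and the study's methods name featureCounts. Which program gave the FPKM and whether strand was used are not given in the sources used here. Library depth was recovered from FPKM times gene length, which is a whole multiple of 1 step per library within 0.05.

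From these values, genes with a mean of at least 0.5 FPKM were tested as log2(FPKM + 0.5) with limma 3.58.1 in R 4.3.3, with a variance trend and Benjamini-Hochberg adjustment over all genes tested in a tissue, at 0.05. Ratios within a library were compared with exact permutation tests. The steps were checked on simulated data in which 200 genes per tissue were given a log2 change of 1. Of these, 87 in crypts and 99 in tumors reached an adjusted p under 0.05 in limma. A count of 0 at this threshold therefore does not show that no gene differs. Alternatives were other pseudocounts, filters and scalings, no variance trend, voom on recovered fragments, the replicate number as a block, and leaving out each library.

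The text names the 10 enzymes, 7 mucins, *C1galt1c1*, *Ctnnb1* and, per tissue, up to 8 further genes of the O-glycan, sugar donor, mucin and goblet lists with the smallest unadjusted p under 0.05. Other genes, such as *Xist* and the leading markers, were named after their values were seen, and so were the promoter motifs. The members and lists were chosen with earlier results of these data known.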

Additional observations from a re-analysis of the deposited data

Results flagged for a closer look

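For 4 enzymes every knockout library lay below the mean of the wild-type libraries in crypts and above the mean of the *ApcMin/+* libraries in tumors, 4 of 9 tested members. Of 13370 genes tested in both tissues 791 (5.92%) met the same description and 640 (4.79%) its opposite. The log2 fold change in tumors minus that in crypts was 1.28 for *Gcnt3* (-0.37 in crypts and 0.91 in tumors), 1.13 for *Galnt12* (-0.35 and 0.78), 0.996 for *Gcnt1* (-0.57 and 0.42) and 0.48 for *C1galt1* (-0.22 and 0.26). The difference between tissues was not tested, since the tables were normalized separately. In crypts the groups overlapped for all 4 genes at the FPKM as deposited, and with each library left out the value was between -0.53 and -0.18 for *Gcnt3* and between -0.48 and -0.19 for *Galnt12*. Without wild-type replicates 1 and 2, the libraries with stomach markers, it was -0.09 for *Gcnt3*, -0.23 for *Galnt12*, -0.47 for *Gcnt1* and 0.36 for *C1galt1*. Of the 4 genes *Gcnt1* alone then had every knockout library below the remaining wild-type library. For *C1galt1* the groups overlapped in tumors too, where its lowest knockout value of 25.6 stood at the *ApcMin/+* mean of 25.6, and its crypt value was 0.0048 without wild-type replicate 2.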

How the results depend on the processing

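Alternatives moved some counts by over 1.5 times, and the cause was not tested. The count at an adjusted p under 0.05 was 0 in both tissues in limma and in voom, beside 829 and 2421 genes at an unadjusted p under 0.05 (805 and 2541 in voom). It was between 0 and 3 in crypts with each library left out (3 without wild-type replicate 3) and 1 in tumors with no variance trend. The unadjusted count in crypts was 1349 with no filter on FPKM, between 462 and 1344 with each library left out, and 2240 without wild-type replicates 1 and 2, where 1 wild-type library remained and the spread came from the knockout libraries alone. In tumors it was between 1399 and 2755 with each library left out and 1205 without the 2 libraries that express *Xist*. The last alternative of each tissue was chosen after seeing the data.

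Among the members, the count at an unadjusted p under 0.05 in crypts was 1 after quantile normalization (*Galnt12*), 1 in voom (*Fut2*) and between 0 and 2 with each library left out. The median log2 fold change of the members in tumors was between 0.15 and 0.43 with each library left out.

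Some log2 fold changes near 0 or with a wide spread changed sign, and the cause was not tested. With each library left out, *B3gnt6* was between -0.29 and 0.56 in crypts and between -0.12 and 1.02 in tumors, *C1galt1* between -0.51 and 0.0048 in crypts, and *Galnt4* between -0.13 and 0.13 in crypts. *C1galt1c1* was between -0.074 and 0.093 in crypts and between -0.020 and 0.25 in tumors, *Muc2* between -0.23 and 0.20 in crypts, and *Muc4* between -0.21 and 0.32 in crypts. The log2 ratio of *B3gnt6* to *C1galt1* differed by between -0.25 and 1.51 in crypts and between -0.27 and 1.18 in tumors, and that of *Gcnt3* to *C1galt1* in crypts by between -0.28 and 0.0016. Rescaling without the 50 genes of highest FPKM gave -0.033 for *Galnt4*, -0.040 for *C1galt1c1* and -0.048 for *Muc2* in crypts, and quantile normalization -0.056, -0.083 and -0.076. Without wild-type replicates 1 and 2, *B3gnt6* was -0.47, *C1galt1* 0.36, *Galnt3* 0.18 and the log2 ratio of *B3gnt6* to *C1galt1* -1.01 in crypts. Without the 2 libraries that express *Xist*, *Muc1* was -0.032 in tumors.

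With the replicate block, the count at an adjusted p under 0.05 was 0 in both tissues, that at an unadjusted p under 0.05 was 732 in crypts and 1882 in tumors, and that of members 0 and 4. The correlation r of samples with the same number was between -0.12 and 0.05, and 0 of 3 numbers in crypts and 1 of 3 in tumors (replicate 3, the libraries that express *Xist*) correlated best with their own. The numbers were not taken as pairs.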

Other observations

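*Chst4*, a sulfotransferase acting on N-acetylglucosamine, did not overlap between groups in either tissue, and the 2 tissues had opposite signs. Its FPKM was 14.9, 14.5 and 11.8 in wild-type crypts and 9.80, 9.99 and 11.7 in knockout crypts. In tumors it was 6.41, 6.06 and 6.33 with the intact enhancer and 10.3, 12.1 and 8.51 in knockout libraries, a log2 fold change of 0.66 (SE 0.14, adjusted p = 0.269, limma), higher in 3 of 3 libraries. The difference between tissues was not tested, and the tumor values were picked after they were seen. In crypts the closest values were 11.8 in wild-type replicate 3 and 11.7 in knockout replicate 3. The crypt log2 fold change of -0.37 was nearer 0 without wild-type replicates 1 and 2, as given above.

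The sialyltransferases differed in their leading gene. *St3gal4* held 92.2% of the summed FPKM of the 13 sialyltransferase entries over the crypt libraries, and *St6galnac6* held 41.0% over the tumor libraries. The tables were normalized separately, and no test was made between tissues.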
